A study of Mus musculus with 4 samples.

Results

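The genes described here are 10 genes of the integrated stress response, *Atf4*, *Ddit3* (which encodes CHOP), *Atf3*, *Atf5*, *Trib3*, *Ppp1r15a*, *Chac1*, *Eif2ak3*, *Gdf15* and *Fgf21*. Every non-control probe that the array annotation assigns to any of these names was taken. This gave 11 probes of the 39429 on the array, 2 for *Atf4* and 1 for each other gene, or 10 of 30175 gene names. In this response, kinases that sense different stresses, among them PERK of the endoplasmic reticulum, phosphorylate the translation initiation factor eIF2α, which lowers protein synthesis as a whole while the mRNA of the transcription factor ATF4 is translated more. ATF4 then activates genes of amino acid supply, further transcription factors such as CHOP, ATF3 and ATF5, and a phosphatase subunit that reverses the phosphorylation. In fibroblasts the pathway is known for its response to shortage of amino acids, unfolded proteins and oxidants.

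NIH-3T3:Per2-Luc, a line of mouse fibroblasts with a luciferase reporter under the *Per2* promoter, was measured on 4 one-color arrays of 1 slide, with 1 array for each condition. The 3 pulsed arrays carried RNA from cells that had received H2O2 at 5 mM during 10 min (critical oxidative stress, cOS-pulse), collected 4 h, 20 h and 32 h later. The control array carried RNA from cells at 0 mM H2O2 that received fresh medium, itself a weak resetting stimulus in this study. Its label places the control at 4 h, and this array served as the control for all 3 hours, so the comparisons with it share its errors, and the hour after the medium change and the pulse cannot be told apart at 20 h and 32 h.

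Signals are given relative to the 75th percentile of the array, which is set to 1. The scanner software marked 53.4% of the 39429 probes as well above background in the control, 59.1% at 4 h, 55.2% at 20 h and 52.7% at 32 h. Conditions were not replicated, which allows no test and limits the precision, and genes were counted by a fixed size of change, 2-fold or more. The error given with a log2 ratio is that of the scanner software for the spots (about 10.1% of a signal in the control) and does not cover differences between cultures. The log2 ratios of probes with 10 spots on each array had a median SD of 0.055 between spots at 4 h over the control. Where only 1 of the arrays was well above background, the ratio is a bound. In it the dim signal is replaced, where that is higher, by the faintest signal that its array still marked as well above background. A bound that came out below no change is not given. Because probes differ in their brightness, signals are compared between arrays only, never between probes.

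All 9 fibroblast markers examined (*Col1a1*, *Col1a2*, *Col3a1*, *Fn1*, *Vim*, *Thy1*, *Pdgfrb*, *Lox* and *S100a4*) were well above background on all 4 arrays. Their summed signal was 653 in the control, 569 at 4 h, 586 at 20 h and 596 at 32 h, and the probe of *S100a4* was the brightest, which does not rank the RNAs. The lower sums at 20 h and 32 h depend on the scaling. Before it, the 75th percentile lay above that of the control by 0.33 log2 units at 20 h and 0.18 at 32 h. *Pdgfrb* alone was at least 2-fold lower at 4 h (log2 ratio -1.35), while 3 markers were so with median or spike-in scaling and 2 with quantile normalization. At 20 h *Col1a1*, *Col3a1* and *Thy1* were (-1.06, -1.02 and -1.39), of which *Thy1* alone was with median, spike-in or no scaling and *Col3a1* was not with normexp. Of 22289 genes with a RefSeq name, each by its brightest probe, 6.33% were at least 2-fold lower at 4 h and 2% at 20 h. Of 10 markers of other cell types, *Epcam* and *Cdh1* of epithelial cells, *Ptprc* of blood cells and *Myod1* of muscle cells had no signal well above background. 5 were well above background in the control (*Krt14*, *Cd68*, *Pecam1*, *Cdh5* and *Snap25*), and *Alb* was so at 4 h and 20 h. Of these, *Krt14*, also a marker of epithelial cells, *Cd68*, *Pecam1* and *Snap25* were well above background on all 4 arrays. The summed signal of the 10 was 15.8 in the control, 24.6 at 4 h, 8.34 at 20 h and 8.97 at 32 h, and the sum followed the brightest probe, that of *Snap25*, which gave 15.1, 22.4, 7.55 and 8.18 on these arrays. Which marker was the most abundant cannot be read from probes of different brightness. *Cd68* of macrophages and *Cdh5* of endothelial cells were at least 2-fold higher at 4 h, with log2 ratios of 2.08 and 1.87, against 7.15% of genes. *Snap25* was at least 2-fold lower at 20 h (-1.002), but not with median, spike-in or no scaling nor with normexp. The part of these markers in the results below was not tested. In these bulk samples, fewer cells with an RNA and less of it in each cell cannot be told apart.

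At 4 h after cOS-pulse, 7 of the 11 probes, from 6 of the 10 genes, were 2-fold or more above the control, and none was 2-fold or more below it. Over all probes, 6.77% were at least 2-fold higher and 4.94% at least 2-fold lower. The genes were *Atf4*, by both of its probes, *Atf5*, *Trib3*, *Ppp1r15a*, *Chac1* and *Gdf15*, the last by a bound. 8 probes could be measured on both arrays, with a median log2 ratio of 1.66 and a range from 0.40 to 2.44, and 6 of these 8 were at least 2-fold higher. Among all 20392 probes measured on both arrays, the median log2 ratio was 0.17, and 8.63% were at least 2-fold higher. This median was below 0 under 4 of the 5 other scalings, down to -0.23 with spike-in scaling, where 3.33% of all probes were at least 2-fold higher and 9.7% lower. At 20 h and at 32 h, none of the 11 probes lay 2-fold or more from the control, though 3 of them had no ratio at either hour. With no scaling *Trib3* was higher at 20 h, and with spike-in or no scaling *Chac1* was at 32 h, while *Gdf15* was lower at both hours when detection was not required or was read from another flag. The shares of all probes were 0.763% higher and 1.87% lower at 20 h, and 1.15% higher and 1.43% lower at 32 h. With no scaling more probes were higher than lower, 1.91% against 1.01% at 20 h and 1.71% against 1.02% at 32 h, and with spike-in scaling 1.29% against 1.27% and 1.65% against 1.05%. Each of the 8 probes that were well above background on all 4 arrays had its highest signal at 4 h, but *Eif2ak3* had it at 32 h with spike-in or no scaling.

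*Eif2ak3* encodes PERK, the eIF2α kinase in the membrane of the endoplasmic reticulum. Its probe (A_55_P2048744, chr6:70855152-70855211 of mm9, the build of the array annotation) gave 1.04 in the control, 1.37 at 4 h, 0.877 at 20 h and 1.02 at 32 h. The log2 ratio at 4 h was 0.40 ± 0.20 (spot error), below the threshold, with 33.6% of all measured probes at or above it. The value came to -0.0037 with spike-in scaling, so its direction is not settled. The signals of the control and the 32 h array differed by less than their spot errors.

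*Atf4* encodes the transcription factor at the center of the response. The brighter of its probes (A_55_P1979728, chr15:80087902-80087961) gave 70.3 in the control, 224 at 4 h, 66.9 at 20 h and 68.3 at 32 h. The other probe (A_51_P464238, chr15:80086639-80086698), whose start lies 1263 bases upstream of that of the first, gave 1.75, 6.20, 1.58 and 1.70 on the same arrays. By both probes the 4 h array stood apart, while the control, 32 h and 20 h arrays followed in this order with neighbors closer than their spot errors. The mRNA was 3.19-fold higher at 4 h by the first probe (log2 ratio 1.68 ± 0.20) and 3.55-fold by the second (1.83 ± 0.20), and the probes differed by 0.15 with an error of 0.29. Only 2.11% and 1.63% of all measured probes had ratios as high. At 20 h the log2 ratios were -0.072 and -0.15, and at 32 h both were -0.041. All 4 of these values came out above 0 with spike-in or no scaling, so the order of the control and the later arrays is not settled.

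Among the transcription factors that act with ATF4 or follow it, *Atf5* was at least 2-fold higher at 4 h, and *Ddit3* did not reach the threshold. *Atf5*, whose mRNA is also translated under stress, gave 41.6 in the control, 131 at 4 h, 44.6 at 20 h and 49.8 at 32 h (A_55_P2105858, chr7:52067627-52067686). It was 3.14-fold higher at 4 h (log2 ratio 1.65 ± 0.20), while the log2 ratio was 0.10 ± 0.20 at 20 h and 0.26 ± 0.20 at 32 h. The value at 20 h was within the spot error as reported and above it under 4 of the 5 other scalings. *Ddit3* encodes CHOP, a factor known for its part in cell death after long stress. Its signal was 2.73 in the control, 3.92 at 4 h, 2.06 at 20 h and 2.59 at 32 h. The log2 ratio was 0.52 ± 0.20 at 4 h, a 1.44-fold difference that 24.9% of all measured probes equaled or exceeded, -0.41 ± 0.20 at 20 h and -0.077 at 32 h. The order was 4 h, control, 32 h and 20 h, and only the control and the 32 h array were closer than their spot errors. The ratio at 4 h came to 0.16 with median and 0.12 with spike-in scaling, and that at 20 h to -0.0755 with no scaling, all within the spot error, and at 32 h it was above 0 with spike-in or no scaling. *Atf3*, a stress-induced repressor and activator of the same family, stayed short of being well above background on every array (A_52_P452689, chr1:192994547-192994606), so no ratio was taken. By another flag of the scanner software, for a positive and significant signal, *Atf3* was detected at 4 h only, at 0.0337.

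The reading of *Ddit3* rests on a single probe (A_52_P533146). Its 60 bases, given here as the array annotation lists them, are placed at chr10:126732518-126732821 of mm9, a stretch of 304 bases that is longer than the probe and was not set against exons.
Ddit3 probe: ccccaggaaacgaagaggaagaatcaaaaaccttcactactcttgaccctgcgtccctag

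*Trib3* and *Ppp1r15a*, which have roles in feedback, were each at least 2-fold higher at 4 h. *Trib3*, a pseudokinase that binds ATF4 and CHOP, gave 0.908 in the control, 4.94 at 4 h, 1.57 at 20 h and 1.44 at 32 h (A_55_P2009988, chr2:152163161-152163220). It had the largest measured ratio of the 10 genes, 5.44-fold at 4 h (log2 ratio 2.44 ± 0.20), and 0.569% of all measured probes had a ratio as high. The 20 h and 32 h arrays lay between the control and the 4 h array, with log2 ratios of 0.79 ± 0.20 and 0.66 ± 0.20, and they differed from each other by less than the spot errors. *Ppp1r15a* encodes GADD34, the stress-induced subunit that directs a phosphatase to eIF2α. Its signal was 5.88 in the control, 17.6 at 4 h, 7.58 at 20 h and 8.56 at 32 h (A_55_P2136880, chr7:52778320-52778379). It was 2.997-fold higher at 4 h (log2 ratio 1.58 ± 0.20), and the later arrays again lay above the control, with 0.36 at 20 h and 0.54 at 32 h.

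*Chac1*, which encodes an enzyme that degrades glutathione, gave 2.35 in the control, 8.35 at 4 h, 2.95 at 20 h and 4.26 at 32 h (A_51_P134812, chr2:119179990-119180049). It was the only one of the 8 probes on which all neighbors in the order 4 h, 32 h, 20 h and control were further apart than their spot errors. The ratio was 3.55-fold at 4 h (log2 ratio 1.83 ± 0.20), while 0.33 was found at 20 h and 0.86 at 32 h. The value at 32 h is 1.81-fold, the largest of the 8 at that hour, with 1.63% of all measured probes at or above it, and it was still short of the threshold, which it passed with spike-in scaling (1.02) and with none (1.04).

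The secreted factors of the group were near the limit of the arrays. *Gdf15*, a stress cytokine of the TGF-β superfamily, was well above background at 4 h only, with a signal of 0.0746 (A_55_P1960735, chr8:73153293-73153352). Over 0.0369, the faintest signal in the control that was well above background, this is at least 2.02-fold. The bound fell below 2-fold under each of the other scalings tried and with normexp, so the count of 7 probes is 6 there. *Fgf21*, a hormone induced by starvation and stress, likewise had no array on which it was well above background (A_52_P235347, chr7:52869305-52869364).

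**Figure D1:**
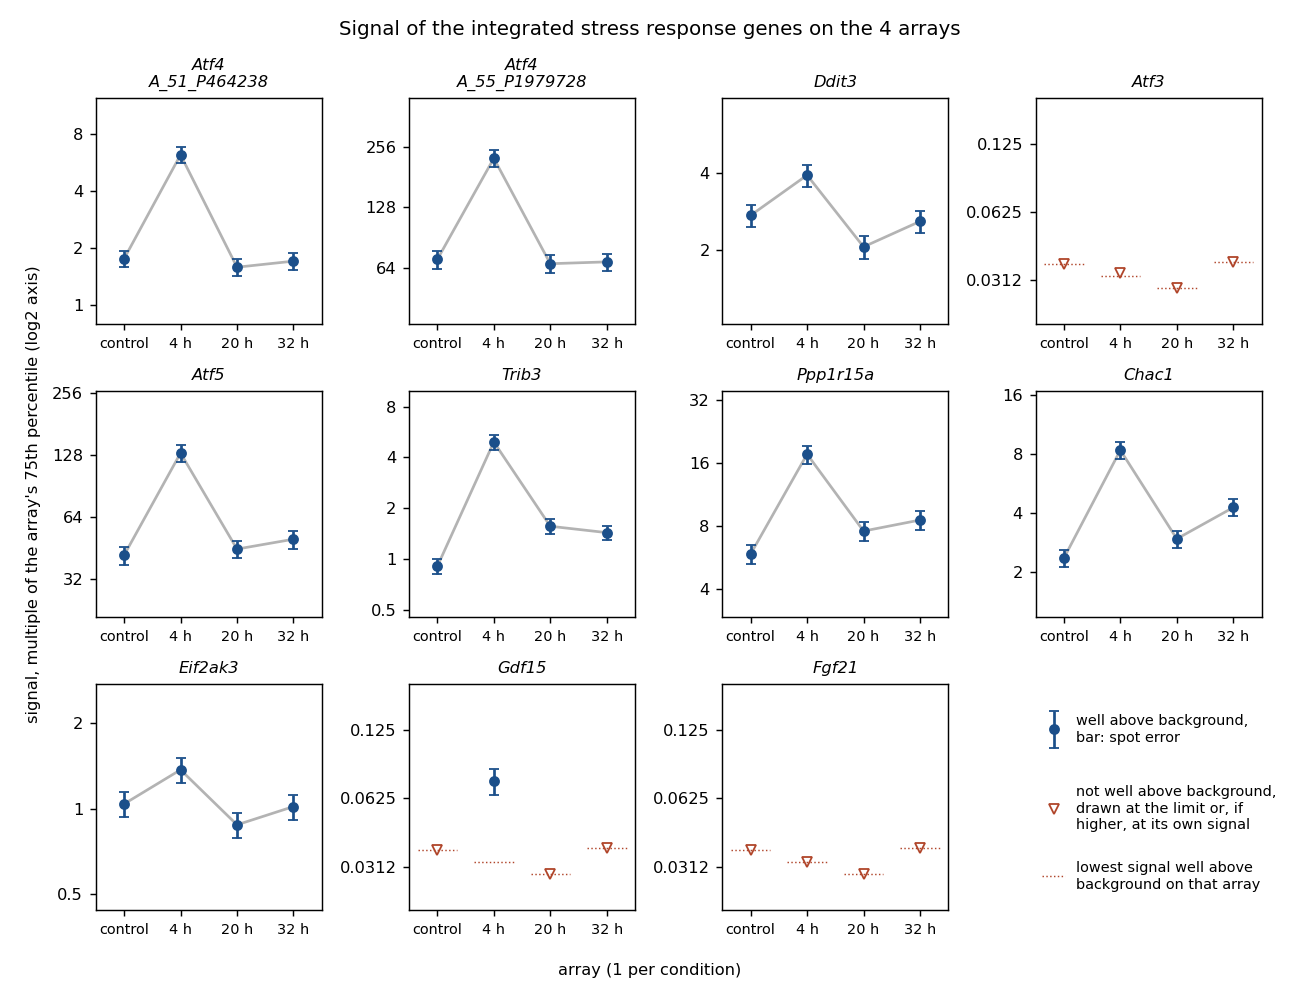
Signal of each of the 11 probes (y axis, multiple of the 75th percentile of the array, log2 axis) on the control, 4 h, 20 h and 32 h arrays (x axis). Filled points with bars are signals well above background with the spot error, and open triangles are signals that were not. Each of the 8 probes measured on all 4 arrays was highest at 4 h as plotted, and with spike-in or no scaling *Eif2ak3* was highest at 32 h.

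The later arrays were also set against the 4 h array. At 20 h, 7 of the 11 probes were at least 2-fold lower than at 4 h, against 9.15% of all probes, and at 32 h 5 were, against 8.31%. These counts were 3 and 3 with spike-in scaling (3.66% and 3.32% of all probes) and with none (3.58% and 3.93%), and 4 and 3 with quantile normalization (6.35% and 6.14%), and both *Atf4* probes and *Trib3* were among the probes counted each time. The drop from 4 h to 20 h was 3.36-fold for the brighter *Atf4* probe and 3.94-fold for the other, 2.93-fold for *Atf5*, 3.15-fold for *Trib3*, 2.33-fold for *Ppp1r15a*, 2.83-fold for *Chac1* and at least 2.57-fold for *Gdf15*. With no scaling the drops were smaller. The log2 ratio went from -1.747 to -1.134 and from -1.977 to -1.364 for these *Atf4* probes, and from -1.55 to -0.937 for *Atf5*. It went from -1.656 to -1.043 for *Trib3*, from -1.218 to -0.6055 for *Ppp1r15a* and from -1.502 to -0.8887 for *Chac1*. The bound for *Gdf15* went from -1.363 to -0.7504, and it was also short of 2-fold with median, quantile and spike-in scaling. The drop from 4 h to 32 h was smaller than 2-fold for *Chac1*, at 1.96-fold, and its bound for *Gdf15* was 1.98-fold. Both comparisons share the 4 h array with the comparison against the control.

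Between 20 h and 32 h, the hours set against each other in the study for circadian change, none of the 11 probes was at least 2-fold apart, against 1.56% of all probes. The 8 measured probes had a median log2 ratio, 20 h over 32 h, of -0.17, with a range from -0.53 to 0.13, while the median of all 20247 measured probes was 0.0083 and their robust SD 0.14. With no scaling these medians were -0.013 and 0.16. *Chac1* had the lowest value, -0.53 ± 0.20, and *Ddit3* followed at -0.33 ± 0.20. *Trib3* alone was above 0, at 0.13 ± 0.20, while 2 of the 8 were above 0 with median or spike-in scaling and 3 with none.

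The genes whose course over the 3 log2 ratios lay nearest to that of the brighter *Atf4* probe were, in order of Euclidean distance, *Taf7*, *Eif2s2*, *Csnk2a2*, *Ppp1r15b* and *Gm9892*, at 0.081 to 0.104 among 16641 probes of named genes that were well above background on all 4 arrays. *Eif2s2*, a subunit of eIF2, had log2 ratios of 1.68, -0.014 and -0.10 at 4 h, 20 h and 32 h, and *Ppp1r15b*, the constitutive partner of the eIF2α phosphatase, had 1.67, -0.027 and -0.13. For *Ddit3* the nearest were *Cxcl5*, *Ssr2*, *Iigp1*, *Bmp8a* and *Hmga1*, at 0.071 to 0.093 among 16642 probes. The distance was below the spot error of the 4 h ratio for 31 probes with *Atf4* and for 88 with *Ddit3*, so the order among these is not resolved. The likeness rests on 3 ratios that share the control array.

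Promoters were searched because 6 of the 10 genes were higher together at 4 h. Windows from 250 bases before to 50 after each start (RefSeq, GRCm38.p6) were given for all 10 genes, 12 windows in all. On both strands, the core of the C/EBP-ATF response element, TGATGNAA, was found in 4 genes (*Chac1*, *Trib3*, *Atf3* and *Fgf21*), and it was in 3.97% of 32851 promoter windows. The cAMP response element, TGACGTCA, was in *Ppp1r15a* and in 1.79% of all windows. The antioxidant response element, TGACNNNGC, was also in *Ppp1r15a* and in 12.4% of all windows. The endoplasmic reticulum stress element (0.119% of all windows) and the HSF1 element (0.603%) were in none of the 12. None of the matches overlapped another. *Trib3* and *Chac1*, with the core TGATGNAA, and *Ppp1r15a*, without it, were at least 2-fold higher at 4 h. *Atf3* and *Fgf21*, which hold this core, were not well above background, and *Atf4*, *Atf5* and *Gdf15* were higher without a match in these windows. *Ddit3* and *Eif2ak3* had no match either and did not reach 2-fold (log2 ratios 0.52 and 0.40).

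The stretches that hold these matches are shown to let the sites be compared, 5′ to 3′ on the strand of the gene, with the matched bases in capitals. A core read as TTNCATCA and an antioxidant response element read as GCNNNGTCA lie on the opposite strand. They are from chr2:119350992-119351086 (plus strand) for *Chac1*, chr2:152344031-152344106 (minus strand) for *Trib3*, chr1:191183406-191183503 (minus strand) for *Atf3*, chr7:45615592-45615689 (minus strand) for *Fgf21* and chr7:45526243-45526340 (minus strand) for *Ppp1r15a*, all GRCm38.p6. The match begins 193 bases before the start in *Chac1*, 110 in *Atf3*, 139 in *Fgf21* and 12 in *Ppp1r15a* for its cAMP response element, at base 15 after the start in *Trib3*, and at base 4 after it for the antioxidant response element of *Ppp1r15a*.
Chac1: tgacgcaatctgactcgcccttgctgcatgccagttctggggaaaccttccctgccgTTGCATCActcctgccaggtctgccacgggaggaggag
Trib3: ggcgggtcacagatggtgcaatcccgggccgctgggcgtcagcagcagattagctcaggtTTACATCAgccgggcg
Atf3: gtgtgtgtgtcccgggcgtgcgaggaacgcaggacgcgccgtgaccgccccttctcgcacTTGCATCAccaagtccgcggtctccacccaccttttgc
Fgf21: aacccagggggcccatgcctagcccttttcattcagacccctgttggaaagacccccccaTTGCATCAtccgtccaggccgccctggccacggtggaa
Ppp1r15a: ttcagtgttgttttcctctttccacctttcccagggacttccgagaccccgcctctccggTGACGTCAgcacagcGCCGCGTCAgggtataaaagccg

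The wider pathway was described by 9 lists with 89 genes, each taken by its brightest probe. At 4 h, 31 of the 89 were at least 2-fold higher and 2 at least 2-fold lower, against 7.15% and 6.33% of 22289 genes with a RefSeq name. With the other scalings 18 (spike-in, against 3.7% of genes) to 28 (probes detected on all arrays, 5.72%) of the 89 were higher. The share of genes was 3.93% with median scaling, 5.32% with quantile normalization and 4.46% with none. The counts of each list below stand beside the same shares. The median log2 ratio of the 84 measured genes was 0.75, and that of 12661 measured genes on the array 0.10. Of these 84 genes 28 were at least 2-fold higher, beside 1022 of the 12661. The lists were chosen with earlier results of these data known. At 20 h none was higher and 2 were lower, *Slc7a5* and *Vegfa*, against 0.826% and 2% of genes, and at 32 h none was higher and 1, *Slc7a5*, was lower, against 1.31% and 1.51%. *Vegfa* was not lower with median, spike-in or no scaling nor with normexp, and 2 genes were higher at 20 h with no scaling and 1 at 32 h with spike-in scaling or none. Genes named here or below that were neither the highest nor the lowest of their list, nor past 2-fold in a list of up to 8 genes, were chosen after their values were seen.

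Upstream of ATF4, the other eIF2α kinases did not reach 2-fold in either direction. *Eif2ak2*, the kinase activated by double-stranded RNA, gave 0.985 in the control and 0.822 at 4 h (log2 ratio -0.26 ± 0.20), and *Eif2ak1*, the kinase activated when heme is short, gave 0.445 and 0.472 (0.086 ± 0.21, and below 0 under 4 of the 5 other scalings). The median of the 3 kinases was -0.24, the value of *Eif2ak4*, whose measured probes ranged from -0.24 to 0.042. Of 8 subunits of eIF2 and its exchange factor eIF2B, only *Eif2s2* was at least 2-fold higher at 4 h, with 15.8 in the control and 50.6 at 4 h, and its second probe gave a log2 ratio of 0.64. The lowest of the 8 was *Eif2b5* at -0.40, and their median was 0.37, which came to -0.029 with spike-in scaling. Of 4 partners of the eIF2α phosphatase, *Ppp1r15b* rose from 0.336 to 1.07, and the catalytic subunit *Ppp1ca* had the lowest ratio, -0.064 ± 0.20. The median of the 4 was 0.19, and it was below 0 under 4 of the 5 other scalings.

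Of 6 bZIP factors that can pair or act with ATF4 or CHOP, 2 were at least 2-fold higher at 4 h. *Cebpg*, a known partner of ATF4, rose from 0.992 in the control to 3.54 at 4 h (log2 ratio 1.84 ± 0.20) and was at 1.02 and 1.05 later. *Cebpd* rose from 86.7 to 207 and remained at 124 on both later arrays, with log2 ratios of 0.52 and 0.51. Its ratio at 4 h, 1.26, was 0.85 to 0.97 with median, quantile, spike-in or no scaling, so that 1 of the 6 was counted there. *Jdp2* had the lowest ratio, 0.33, which fell below 0 with median or spike-in scaling, and *Cebpa* had no signal well above background. The median was 0.91.

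The targets of ATF4 in amino acid supply had the highest median of the 9 lists. Of 17 genes, 12 were at least 2-fold higher at 4 h and none at least 2-fold lower, with a median log2 ratio of 1.69 for the 15 measured. *Slc7a1*, a transporter of cationic amino acids, gave 5.15 in the control, 45.9 at 4 h and 3.71 at 20 h and at 32 h, the highest measured ratio of the list (8.91-fold, log2 ratio 3.15 ± 0.20). *Slc7a11*, the cystine transporter, was well above background at 4 h only, with a signal of 1.20, which is at least 32.4-fold, and *Pycr1* of proline synthesis was at least 6.39-fold higher. Both bounds hold for the scaling used and move with it, and both genes stayed past 2-fold under each of the other scalings. The lowest of the list was the transporter *Slc1a4* at 0.22, below 0 with median, spike-in or no scaling. *Slc7a5*, a transporter of large neutral amino acids, gave 0.296 in the control, 0.962 at 4 h, 0.121 at 20 h and 0.0950 at 32 h, and so it lay above the control at 4 h and more than 2-fold below it later. It was not 2-fold lower at either later hour by the median of its 2 probes, nor at 20 h with no scaling.

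Of 13 genes of tRNA charging and export, 5 were at least 2-fold higher at 4 h (*Aars*, *Gars*, *Nars*, *Yars* and *Xpot*) and 1 at least 2-fold lower, with a median of 0.996. *Yars* had the highest ratio, from 0.112 in the control to 0.399 at 4 h (log2 ratio 1.83 ± 0.23). *Mars*, the synthetase for methionine, fell from 2.37 to 1.10 (log2 ratio -1.11 ± 0.20), and the next lowest, *Wars*, was within its error of 0 (0.089 ± 0.20). With median or spike-in scaling only *Yars* was at least 2-fold higher, against 3.93% and 3.7% of all genes. Under the remaining scalings 3 of the 13 were, against 4.46% to 5.72% of genes.

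Of 13 other targets of ATF4 and CHOP, 6 were at least 2-fold higher and none lower at 4 h, with a median of 0.80. The death receptor gene *Tnfrsf10b*, known as a target of CHOP, rose 5.06-fold from 0.670 to 3.40, and its later signals were 0.646 and 0.731. *Stc2* had the lowest ratio, -0.60 ± 0.21. Of the 13, 3 were higher when scaled by the median, by the spike-in probes or not at all, and with spike-in scaling the median was 0.40 and *Stc2* was at least 2-fold lower (-1.003). For comparison, the IRE1 and ATF6 arms of the unfolded protein response had 4 of 19 genes at least 2-fold higher at 4 h (*Hspa5*, *Dnajb9*, *Hyou1* and *Derl1*, the second probe of which gave a log2 ratio of 0.18), none lower, and a median of 0.62. *Dnajb9*, a cochaperone of the endoplasmic reticulum, had the highest ratio, 4.36-fold from 1.69 to 7.38, and *Derl2* the lowest, -0.081, with its 3 probes between -0.87 and -0.081. With median, quantile or no scaling 2 of the 19 were higher. With spike-in scaling only *Dnajb9* was, against 3.7% of genes, and the median was 0.21. Of 6 mitochondrial stress genes, none was at least 2-fold higher and 1 was lower. This was *Oma1*, the mitochondrial protease that can signal to the integrated stress response, which fell from 0.163 to 0.0621 (log2 ratio -1.39 ± 0.28) but was not 2-fold lower with normexp (-0.73), while *Hspa9* had the highest ratio of the list, 0.89. The list's median was 0.55, and 0.15 with spike-in scaling.

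**Figure D2:**
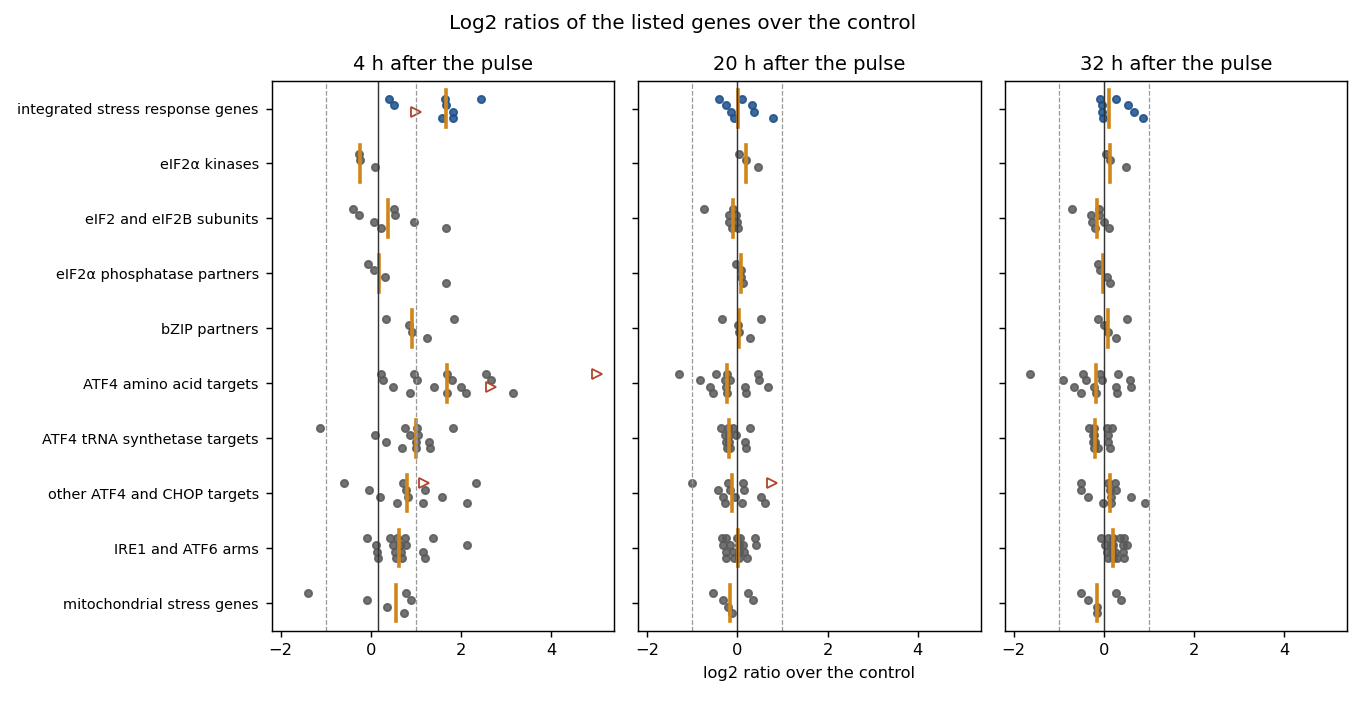
Log2 ratio over the control (x axis) at 4 h, 20 h and 32 h for the probes of the 10 genes and for the genes of each list (y axis). Points are measured ratios, open triangles bounds, orange bars list medians, the thin line the median of all measured probes and dashed lines the 2-fold limits. The amino acid targets had a median of 1.69 at 4 h and -0.23 at 20 h, which was above 0 (0.098) with no scaling.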

How the data were processed

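RNA of 4 cultures was measured on one-color Agilent arrays, 1 per condition. The authors deposited an intensity for each spot from Feature Extraction 10.7.3.1, from which the background of the spot had been subtracted. Their deposited series table holds these signals after division of each array by a constant, as was checked over 44397 spots of each array. Spots with an outlier flag (125 to 161 per array, 0 saturated) were left out, log2 intensities were averaged for each probe, and arrays were brought to a common 75th percentile over all probes. A probe was called well above background when at least 50% of its spots were. The SAM test named in the methods of the study needs replicates and was not run.

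The named genes were all probes of the 10 genes, the highest and lowest measured ratio of each list at 4 h, every gene past 2-fold in lists of up to 8 genes, and the 5 nearest courses. Other genes named were chosen after their values were seen. Members and lists were chosen with earlier results of these data known. For a gene with several probes, the brightest was used.

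Alternatives to the scaling used the median, quantile normalization, the 75th percentile over probes that every array detected, 8 spike-in probes, or no scaling. The others were background correction by normexp (offset 50; R 4.3.3, limma 3.58.1), no detection filter, detection required on both arrays, another detection flag, inclusion of flagged spots, the series table, thresholds of 1.5-fold and 3-fold, and, for genes with several probes, their median. The steps were tested on simulated data. Python 3.11.15 was used with matplotlib 3.10.9, pandas 2.3.3 and numpy 2.4.6.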

Additional observations from a re-analysis of the deposited data

Results flagged for a closer look

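*Ddit3* had a log2 ratio over the control of 0.5214 at 4 h and of -0.4074 at 20 h. *Eif2ak3* had 0.3993 at 4 h and -0.2438 at 20 h. In both genes the pulsed array lay above the control at the early hour and below it at the later one, each time by more than the spot error of the ratio, and neither value reached 2-fold. The direction of *Eif2ak3* changed with the scaling. With spike-in scaling *Eif2ak3* was at -0.0037 at 4 h, and with no scaling at 0.088 at 20 h. *Ddit3* kept its directions but was at 0.12 at 4 h with spike-in scaling and at -0.0755 at 20 h with no scaling, both within the spot error. The difference between the hours was not tested, since there was 1 array per condition. Both ratios share the control array.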

How the results depend on the processing

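No paired analysis was possible because each condition had 1 array. The 6 probes of *Atf4*, *Atf5*, *Trib3*, *Ppp1r15a* and *Chac1* were at least 2-fold higher at 4 h under all 11 alternatives to scaling, background, detection, spots and table. *Gdf15* was not counted under 7 of them, and *Atf3* was counted in addition with no detection filter and with the flag for a positive and significant signal, an alternative chosen after seeing the data. The median log2 ratio of the measured probes at 4 h, 1.66, was 1.301 with median scaling, 1.308 with quantile normalization, 1.26 with spike-in scaling and 1.381 with no scaling. Of the 11 probes, 1 was at least 2-fold higher at 20 h with no scaling (*Trib3*) and 1 at 32 h with spike-in scaling or with none (*Chac1*). At a threshold of 1.5-fold, 1 was higher at 20 h and 2 were at 32 h. The 31 pathway genes at least 2-fold higher at 4 h numbered 20 when scaled by the median, 18 when scaled by the spike-in probes, 53 at 1.5-fold and 17 at 3-fold. The 2 lower genes were 1 with normexp, which lost *Oma1*, and 0 at 3-fold.

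The scaling sets the level of all probes. Against the reported values, the median log2 ratio of all measured probes at 4 h shifted by -0.36 with median scaling, -0.19 with quantile normalization, -0.12 with the probes detected on all arrays, -0.40 with spike-in scaling and -0.28 with none. At 20 h it shifted by 0.10, 0.20 and 0.33 with median, spike-in and no scaling, at 32 h by 0.16 with spike-in and 0.18 with no scaling, and between 20 h and 32 h by 0.15 with no scaling. Of all probes past 2-fold at 4 h, 57.8% were higher as reported, and 28.1%, 42.1%, 46.7%, 25.6% and 34.0% under those 5 scalings. At 20 h the share was 29.0% as reported, 39.1% with median scaling, 50.3% with spike-in scaling, 65.4% with none and 17.1% with normexp. At 32 h it was 44.4%, 61.1% with spike-in scaling and 62.7% with none. Of probes apart between 20 h and 32 h, 31.9% were higher at 20 h, and 15.9% with normexp. No result past 2-fold changed direction, and of 1963 values under alternatives 1628 stayed within the spot error or within 1.5 times the count. The cause of the changes was not tested. Signal over background limits *Gdf15*, *Atf3* and *Fgf21*.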

Other observations

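In the IRE1 and ATF6 arms of the unfolded protein response, none of 18 measured genes was 2-fold apart between the later hours. A higher signal at 32 h than at 20 h was found in 17 of them, against 47.5% of all measured probes, and it exceeded the spot error in 9. The median log2 ratio, 20 h over 32 h, was -0.24. The median over all 20247 measured probes was 0.0083. With no scaling the medians were -0.087 and 0.16, and 16 genes and 15.8% of all measured probes had the higher signal at 32 h. *Hspa5*, the main chaperone of the endoplasmic reticulum, gave 45.8 at 20 h and 61.8 at 32 h, beside 58.3 in the control and 151 at 4 h. In the list of other targets of ATF4 and CHOP, the median of the 12 measured genes was -0.15 between the same arrays, and 0.0070 with no scaling, beside the all-probe medians of 0.0083 and 0.16. The median of the 13 genes of tRNA charging and export was 0.029, and 0.18 with no scaling. These genes were picked for this account after their values were seen.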
